A study of Homo sapiens with 12 samples.

Results

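The genes described here are 10 members of interleukin 7 receptor and JAK-STAT5 signalling: the receptor chains IL7R, IL2RG and CSF2RB, the kinases JAK1, JAK2 and JAK3, the transcription factors STAT5A and STAT5B, and the feedback genes SOCS2 and CISH. They were chosen by gene name, for their roles and with earlier results of these data known, from a table of 58735 genes. All 10 have an entry. RNA came from SEM, an established leukaemia line of B cell precursors, in 12 libraries of 4 groups with 3 libraries each. The groups were wild-type (WT) cells left untreated, WT cells given 1 µM cytarabine (AraC) for 16 hours, IKZF1 knockout (KO) cells left untreated, and KO cells given the same AraC treatment. By its title, the series asks how loss of IKZF1, which encodes the lymphoid transcription factor Ikaros, bears on the response to cytarabine, a nucleoside analogue that stalls DNA replication. All groups share the SEM background and a serum-containing medium for which the labels name no added cytokine. The labels name 1 knockout line and describe neither how it was made nor whether replicates were separate cultures, so the p-values here reflect library-to-library spread that could be purely technical.

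Interleukin 7 binds a receptor made of IL7R and the common gamma chain IL2RG. JAK1, held by IL7R, and JAK3, held by IL2RG, then phosphorylate STAT5A and STAT5B, which enter the nucleus and switch on target genes. Those targets include CISH and SOCS2, whose products dampen the receptor. B cell precursors depend on this route for survival and growth in mice, and Ikaros is known to oppose STAT5 at shared target genes in that lineage. CSF2RB, the common beta chain of the receptors for interleukin 3, interleukin 5 and GM-CSF, signals through JAK2 to the same STAT5 proteins.

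Promoter sequence is shown for 3 members: CISH, because its promoter holds repeated STAT5-type motifs, and the receptor chains IL7R and IL2RG, because they differed between the genotypes and the Ikaros core motif can be read in their windows. Each sequence is a RefSeq window on GRCh38.p14, running 5′ to 3′ on the gene's strand from 250 bases before the start to 50 bases within the gene. In CISH, capitals mark TTCNNNGAA, the STAT5-type motif. In IL7R and IL2RG, capitals mark GGGAA or its reverse complement TTCCC, the Ikaros core. The windows are chr3:50611725-50612024 on the minus strand for CISH, chr5:35856641-35856940 on the plus strand for IL7R, and chrX:71111528-71111827 on the minus strand for IL2RG.
CISH: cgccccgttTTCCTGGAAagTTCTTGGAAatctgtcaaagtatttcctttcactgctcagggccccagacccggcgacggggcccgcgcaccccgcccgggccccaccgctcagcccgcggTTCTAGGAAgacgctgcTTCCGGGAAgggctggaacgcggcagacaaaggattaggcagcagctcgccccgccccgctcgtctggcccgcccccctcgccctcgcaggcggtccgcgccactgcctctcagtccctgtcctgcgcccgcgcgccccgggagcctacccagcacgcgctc
IL7R: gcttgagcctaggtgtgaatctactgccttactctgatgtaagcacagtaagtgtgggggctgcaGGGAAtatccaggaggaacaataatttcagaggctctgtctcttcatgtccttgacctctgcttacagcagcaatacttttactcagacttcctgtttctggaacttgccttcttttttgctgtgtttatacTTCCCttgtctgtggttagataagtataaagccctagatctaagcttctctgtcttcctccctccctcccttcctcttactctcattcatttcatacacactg
IL2RG: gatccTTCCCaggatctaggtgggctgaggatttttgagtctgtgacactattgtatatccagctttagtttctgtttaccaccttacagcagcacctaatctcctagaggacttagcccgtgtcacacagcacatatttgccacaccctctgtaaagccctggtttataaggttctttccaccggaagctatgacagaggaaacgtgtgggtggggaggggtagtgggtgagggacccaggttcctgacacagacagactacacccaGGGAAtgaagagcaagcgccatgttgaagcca
RefSeq gave windows for 8 of the 10 members, 15 in all, and none for CSF2RB or SOCS2. The CISH window held 4 matches of TTCNNNGAA, beginning 241, 230, 129 and 112 bases before the start. A single match or more was found in 7.66% of 35116 RefSeq windows of this length and in 1 of the 15 member windows. As many as 4 matches were found in 7 windows of the 35116 (0.0199%). The match TTCCGGGAA at 112 bases before the start also contains GGGAA, so the motifs overlap there. The IL7R window held the Ikaros core 185 and 53 bases before the start, and the IL2RG window 245 bases before and 18 bases after it. That short motif is common: 65.0% of all windows and 11 of 15 member windows held it, and 29.8% of all windows held it more than once. The JAK3 window lacked it, although JAK3 was higher in KO-labelled cells. Every JAK2 window and the CISH window held it, although neither gene passed for the genotype. A link between the motif and the genotype differences was not tested. The RefSeq start lay 4196 bases from the start of the table's gene model for IL7R, 531 bases for IL2RG and 57 bases for CISH. A match of letters is a description of the sequence, and binding was not measured here.

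Levels are given as FPKM (fragments counted for a gene, divided by its length and by the size of the library), so they can be set against each other between genes. Reads recovered from the table came to 16342979 to 16913784 per library in 11 libraries and 22733932 in WT AraC replicate 1. Differences are on the log2(FPKM + 0.5) scale, which understates changes of low genes. They come from limma fitted to all 12 libraries and to the 13300 genes with at least 1 FPKM in at least 3 libraries. A gene is said to have risen, fallen or changed where its Benjamini-Hochberg adjusted p over those genes was under 0.05. IKZF1 RNA was at 22.1 to 22.6 FPKM in untreated WT and 20.5 to 21.5 in untreated KO libraries, and at 14.2 to 15.3 and 14.24 to 14.98 with AraC. A frameshift can leave RNA in place, so this total does not check the genotype, and the knockout libraries are called KO-labelled. Of 12 markers of B cell precursors 10 passed the filter, and their summed level without AraC was 616 to 637 FPKM in WT and 881 to 885 in KO libraries, and with AraC 412 to 442 and 622 to 634. That sum was higher in KO-labelled libraries and lower with AraC, and is carried by abundant genes such as IGLL1, CD79A and VPREB1. Of the 10 tested markers AraC lowered 9 in WT (25.6% of all genes tested) and 6 in KO-labelled cells (24.7%). It raised 0 in WT (24.1% of all genes) and 0 in KO-labelled cells (19.8%). Of the 10 tested markers 6 were higher and 2 lower in untreated KO-labelled cells (14.9% and 12.6% of all genes tested). The lower ones were DNTT (-2.20 log2, 1.38 to 2.52 FPKM in WT and 0 in all 3 KO libraries) and RAG2 (-1.46). DNTT and RAG2 passed the filter only through untreated WT libraries. BLNK (0.611 to 1.07 against at most 0.0346 FPKM) and RAG1 (0.206 to 0.316 against at most 0.0648) did not pass the filter. The part of these markers in the member differences was not tested. Of the T cell markers, CD3D, CD3G and CD2 were at 0 in every library, while TRAC (67.5 to 80.1 FPKM) and LCK (25.9 to 41.1 FPKM) were not. In bulk RNA, fewer cells with a transcript and less of it per cell cannot be told apart.

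Of the 10 members 9 passed the filter on low values, and SOCS2 did not. In untreated cells 6 of the 9 were higher in the KO-labelled libraries, a direction called for 14.9% of all genes tested, and 0 were lower (12.6% of all genes). All 3 receptor chains, JAK1, JAK3 and STAT5A made up the 6. With AraC, 5 of the 9 were higher (15.4% of all genes), STAT5A being the one that missed the threshold, and 0 were lower (14.8%). The median log2 difference of the 9 was 0.37 without and 0.33 with AraC, beside 0.01 and 0.00 over all genes tested. These 2 comparisons share no libraries. The members were chosen with earlier results of these data known, so these counts and medians are a description only. Each of the 11 calls held under all 24 other settings and omissions of a library that were tried. Without AraC the library ranges did not overlap for 6 members, all higher in KO (22.8% of all genes), and with AraC the same 6 did not overlap (21.9%).

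**Figure D1:**
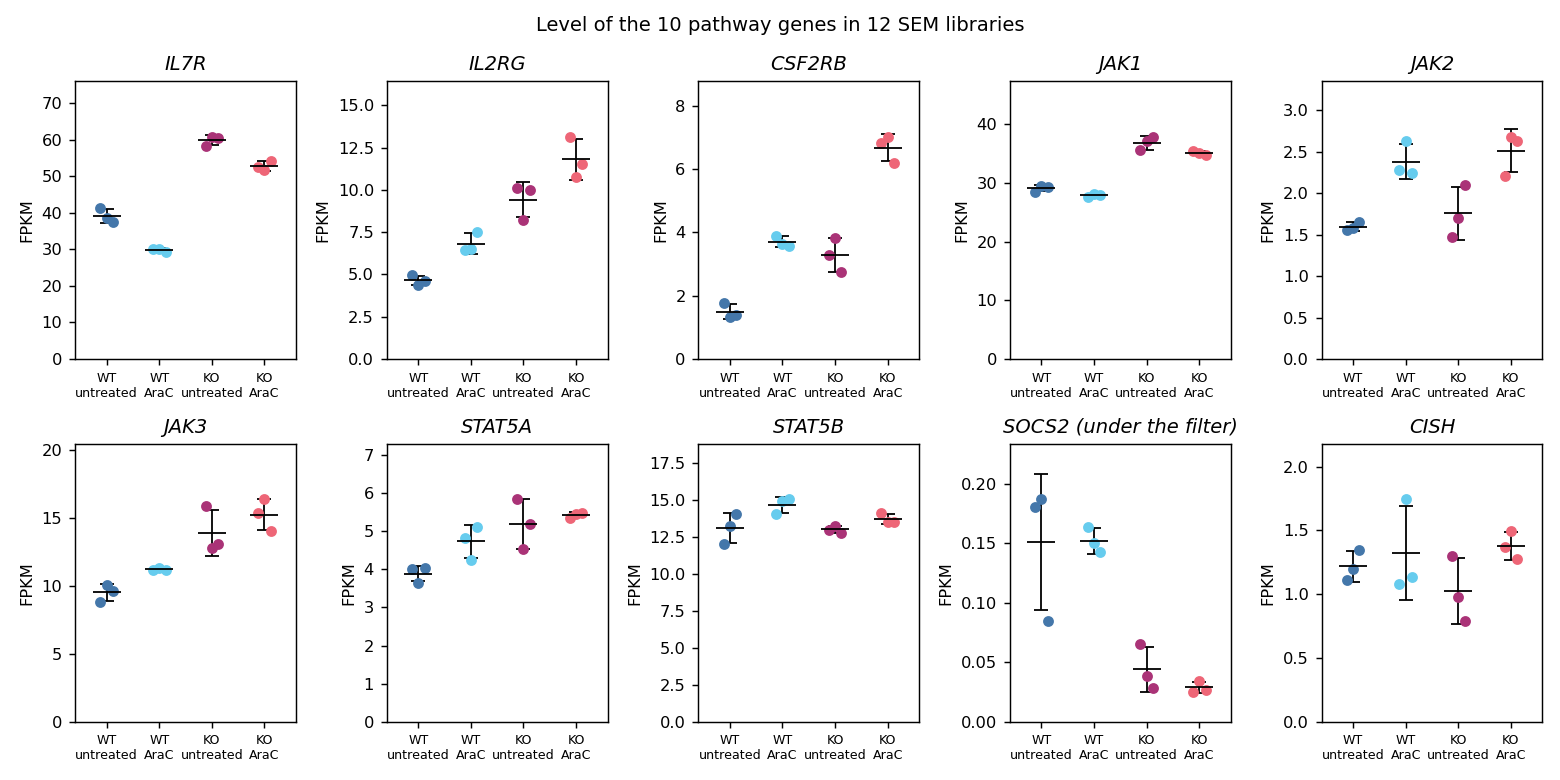
FPKM (linear axis from 0, a scale per gene) of the 10 members in each of the 12 libraries, by group, with 1 point per library, a black dash at the mean of the 3 and error bars of 1 SD. IL7R, IL2RG, CSF2RB, JAK1 and JAK3 lie higher in the KO-labelled libraries than in WT both with and without AraC, CSF2RB and IL2RG also rise with AraC, and SOCS2 stays at or below 0.187 FPKM.

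IL7R, the chain that gives the receptor its specificity, had the highest level of the 10 members in every group. The gene lies at chr5:35852695-35879603 on the plus strand of GRCh38. It was at 41.3, 38.6 and 37.5 FPKM in the untreated WT libraries. The untreated KO libraries had 58.4, 60.9 and 60.4 FPKM. All 3 KO-labelled libraries thus stood above all 3 WT libraries, and the log2 difference was 0.61 ± 0.04 (SE, n = 3 per group, 95% interval 0.52 to 0.69, limma adjusted p = 8.04e-07), a 1.53-fold difference of the mean FPKM. After AraC the WT libraries were at 30.2, 30.0 and 29.4 FPKM and the KO libraries at 52.5, 51.7 and 54.3. The groups again did not overlap, with a log2 difference of 0.81 (0.73 to 0.90, limma adjusted p = 1.74e-07) and a 1.77-fold ratio of means.

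IL7R was also the member that fell with AraC. In WT the log2 difference was -0.38 (95% interval -0.47 to -0.30, limma adjusted p = 1.4e-05), to 0.764 of the untreated mean. In KO-labelled cells it was -0.18 (-0.26 to -0.09, limma adjusted p = 0.00297), to 0.882 of the untreated mean. The fall in KO-labelled cells did not pass under TPM scaling (-0.05, adjusted p = 0.314), plain read totals (-0.06, 0.193) or quantile normalization (-0.01, 0.814), while the fall in WT passed under all of them. TPM scaling itself placed the median of all genes at 0.17 in WT and 0.10 in KO for the AraC effect, and plain totals at 0.13 and 0.09. The interaction (the KO effect of AraC less the WT effect) was 0.20 for IL7R (0.08 to 0.32). It had an unadjusted p of 0.0036 and missed the threshold after adjustment (limma adjusted p = 0.0821, range 0.0422 to 0.158 over the alternatives), so the effects were not shown to differ.

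IL2RG, the gamma chain shared by several lymphoid interleukin receptors, was higher in KO-labelled cells and rose with AraC. It lies at chrX:71107404-71112108 on the minus strand. The untreated WT libraries had 4.95, 4.40 and 4.62 FPKM and the untreated KO libraries 10.1, 8.21 and 9.97. Every KO-labelled value exceeded every WT value, by 0.94 ± 0.09 log2 (SE, n = 3 per group, 0.73 to 1.15, limma adjusted p = 2.43e-05), a 2.02-fold ratio of means. AraC-treated libraries had 6.42, 6.52 and 7.52 FPKM in WT and 13.2, 10.8 and 11.5 in KO, again without overlap (0.75 log2, 0.54 to 0.96, limma adjusted p = 0.000141). The AraC effect was 0.50 log2 in WT (0.30 to 0.71, limma adjusted p = 0.00103). In KO-labelled cells it was 0.31 (0.11 to 0.52, limma adjusted p = 0.0191), and it missed the threshold without KO untreated replicate 2 (0.22, adjusted p = 0.0761) or KO AraC replicate 1 (0.24, 0.0788), and with only those groups in the fit (0.0522). The IL2RG model shares 1403 of its 2760 exon bases (50.8%) with AL590764.2 on the same strand, which was listed with 0 to 1 reads per library. The assignment of reads in that overlap is not given in these sources, so the level of IL2RG against other genes is uncertain.

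CSF2RB was higher in KO-labelled cells and rose with AraC, with the widest range of group means on the log2(FPKM + 0.5) scale among the 9 tested members. It lies at chr22:36913628-36940449 on the plus strand. Untreated WT libraries were at 1.76, 1.33 and 1.40 FPKM, and untreated KO libraries at 3.28, 3.82 and 2.76. The groups did not overlap, with a log2 difference of 0.92 ± 0.11 (SE, n = 3 per group, 0.68 to 1.16, limma adjusted p = 8.07e-05) and a 2.19-fold ratio of means. AraC-treated WT libraries had 3.90, 3.64 and 3.59 FPKM and AraC-treated KO libraries 6.81, 7.03 and 6.20, a difference of 0.77 log2 (0.53 to 1.01, limma adjusted p = 0.000308). AraC raised it in both genotypes without overlap, by 1.08 log2 in WT (0.84 to 1.32, limma adjusted p = 1.25e-05) and 0.93 in KO-labelled cells (0.69 to 1.17, adjusted p = 4.51e-05). The interaction was -0.15 (-0.48 to 0.19, limma adjusted p = 0.657) and did not pass, so equal AraC effects in the genotypes are not shown. The mean in AraC-treated KO cells was 4.46 times that in untreated WT cells, beside 2.54 times for IL2RG and 1.35 times for IL7R.

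CSF2RB is best known from myeloid cells, so the myeloid markers are given beside it. Of 8 markers 3 passed the filter, S100A8, S100A9 and ELANE were at 0 in every library, MPO reached at most 0.0368 FPKM and CD14 at most 0.120. The summed level without AraC was 3.88 to 5.18 FPKM in WT and 1.55 to 2.12 in KO libraries, and with AraC 6.91 to 8.49 and 2.73 to 4.14. The sum was thus higher with AraC, as CSF2RB was, but lower in KO-labelled cells, where CSF2RB was higher. Its rise with AraC lay mainly in LYZ, with means of 1.24 and 3.99 FPKM in untreated and treated WT, and 0.483 and 1.94 in KO. Of the 3 tested markers only LYZ passed for AraC. CSF1R (0.04 log2 in WT and -0.21 in KO) and CD33 (0.34 and 0.37) did not. The alpha chains that pair with CSF2RB are named here after their values were seen: CSF2RA was at most 0.129 FPKM, IL5RA at most 0.0182, and only IL3RA passed the filter.

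IL3RA, the interleukin 3 binding chain, was the pairing partner with the opposite genotype difference. It was at 4.41, 5.48 and 4.51 FPKM in untreated WT and at 1.63, 2.39 and 1.92 in untreated KO libraries, a log2 difference of -1.10 (-1.36 to -0.84, limma adjusted p = 4.17e-05). With AraC it was at 5.64, 5.54 and 6.77 in WT and 2.98, 2.93 and 3.20 in KO, a difference of -0.87 (limma adjusted p = 0.000249). Among partners of IL2RG, IL4R was lower in KO-labelled cells by -0.76 without and -0.72 with AraC (limma adjusted p = 7.96e-05 and 0.000132), and IL21R by -0.64 and -0.72 (adjusted p = 6.21e-06 and 3.22e-06). IL4R stood at 2.02, 2.06 and 2.03 FPKM in untreated WT against 0.837, 1.10 and 1.06 in untreated KO libraries. IL21R stood at 15.8, 15.8 and 17.1 FPKM against 10.7, 9.89 and 10.1. The ligand-specific partners of IL2RG thus differed in direction: IL7R was higher and IL4R and IL21R lower. IL9R, a further partner, was higher in untreated KO-labelled cells by 0.61 log2 (limma adjusted p = 0.0169), and IFNAR2, an interferon receptor chain, by 0.57 (adjusted p = 0.00279), both named after their values were seen.

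**Figure D2:**
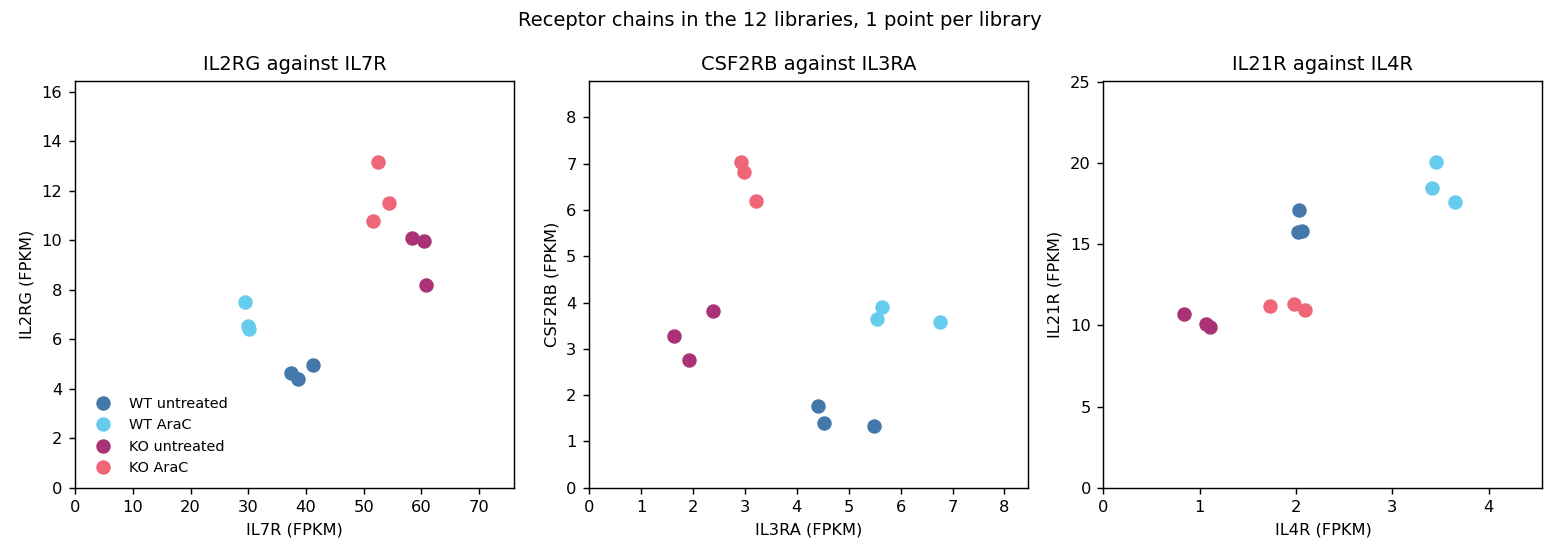
FPKM of receptor chains in pairs, IL2RG against IL7R, CSF2RB against IL3RA, and IL21R against IL4R, with 1 point per library and a colour per group. KO-labelled libraries lie higher on both axes for IL7R with IL2RG, higher for CSF2RB but lower for IL3RA, and lower on both axes for IL4R with IL21R.

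The kinases that sit on the interleukin 7 receptor were both higher in KO-labelled cells. JAK1, at chr1:64833229-64966504 on the minus strand, had 28.5, 29.5 and 29.3 FPKM in untreated WT and 35.6, 37.1 and 37.9 in untreated KO libraries. With AraC it had 27.7, 28.1 and 28.0 FPKM in WT and 35.5, 35.1 and 34.8 in KO. The genotypes did not overlap under either treatment, and the log2 difference was small and nearly equal in both, 0.34 ± 0.03 (SE, n = 3 per group, limma adjusted p = 1.33e-05) without and 0.33 with AraC (adjusted p = 2.03e-05). The AraC effect on JAK1 did not pass in WT (-0.06, -0.13 to 0.01, limma adjusted p = 0.153) or in KO (-0.07, adjusted p = 0.0975). Its direction turned under TPM scaling, to 0.14 in WT (adjusted p = 0.0112) and 0.06 in KO, and under plain totals, to 0.10 in WT (0.028) and 0.05 in KO, so no direction is given for it. It passed as a fall in KO-labelled cells without KO untreated replicate 1 (-0.09, limma adjusted p = 0.0317).

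JAK3, whose expression is largely lymphoid, lies at chr19:17824780-17848071 on the minus strand. It had 8.83, 10.1 and 9.64 FPKM in untreated WT and 15.9, 12.8 and 13.1 in untreated KO libraries. With AraC it had 11.1, 11.3 and 11.2 FPKM in WT and 15.3, 16.4 and 14.0 in KO. No KO-labelled library overlapped the WT libraries under the same treatment, and the log2 difference was 0.52 ± 0.08 (SE, n = 3 per group, 0.34 to 0.70, limma adjusted p = 0.000633) without and 0.42 (0.24 to 0.60, adjusted p = 0.00245) with AraC. AraC raised it by 0.23 in WT (0.05 to 0.41, limma adjusted p = 0.0359). That call was lost in 5 of the 6 omissions of a WT library: without untreated replicate 1 (0.18, adjusted p = 0.128) or 3 (0.0659), or AraC replicate 1 (0.0697), 2 (0.0861) or 3 (0.074). The call was also lost with no filter (0.077) and with the replicate block (0.0503). In KO-labelled cells the AraC effect was 0.13 (-0.05 to 0.31, limma adjusted p = 0.212). It passed without KO untreated replicate 1 (0.23, 0.0199), under TPM scaling (0.27, 0.0475) and under plain totals (0.25, 0.0463).

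JAK2, the kinase used by CSF2RB, showed the other pattern: an AraC effect and no detectable genotype difference. The gene lies at chr9:4984390-5128183 on the plus strand. It was at 1.56, 1.58 and 1.65 FPKM in untreated WT, and at 2.27, 2.62 and 2.24 after AraC. In KO-labelled cells it was at 1.47, 1.71 and 2.10 FPKM untreated and 2.21, 2.68 and 2.64 after AraC. Treated and untreated libraries did not overlap in either genotype, with log2 differences of 0.46 in WT (0.21 to 0.70, limma adjusted p = 0.0051) and 0.42 in KO (0.18 to 0.66, adjusted p = 0.00928). The genotypes overlapped under both treatments, with differences of 0.10 (-0.14 to 0.34, limma adjusted p = 0.556) and 0.06 (-0.18 to 0.30, adjusted p = 0.716). Those intervals include 0 and differences in either direction, so equality of the genotypes is not shown.

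STAT5A and STAT5B lie next to each other on chromosome 17, 10839 bases apart. STAT5B, at chr17:42199168-42276707 on the minus strand, was the more abundant, and STAT5A lies at chr17:42287547-42311943 on the plus strand. In untreated WT libraries STAT5A was at 3.996, 3.65 and 4.02 FPKM, and in untreated KO libraries at 5.84, 4.53 and 5.19. The groups did not overlap, and STAT5A was higher in KO-labelled cells by 0.37 ± 0.09 log2 (SE, n = 3 per group, 0.18 to 0.56, limma adjusted p = 0.00794). With AraC it was at 4.83, 4.25 and 5.12 FPKM in WT and 5.35, 5.46 and 5.48 in KO, a difference of 0.18 (-0.00 to 0.37) that did not pass (limma adjusted p = 0.13). The interaction for STAT5A was -0.18 (limma adjusted p = 0.46), so the genotype difference was not shown to depend on treatment.

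STAT5B did not pass for the genotype with the deposited scaling. It was at 12.1, 13.2 and 14.1 FPKM in untreated WT and 13.0, 13.2 and 12.8 in untreated KO libraries, a log2 difference of -0.01 (-0.12 to 0.11, limma adjusted p = 0.927). With AraC it was at 14.1, 14.9 and 15.1 FPKM in WT and 14.1, 13.5 and 13.5 in KO (-0.10, -0.21 to 0.02, limma adjusted p = 0.198), a difference that passed as lower under TPM scaling (-0.18, adjusted p = 0.0427). The ratio of STAT5B to STAT5A FPKM was 3.38 ± 0.32 (SD, n = 3) in WT and 2.54 ± 0.35 in KO libraries without AraC, and 3.12 ± 0.34 and 2.53 ± 0.09 with it. Both genes rose slightly with AraC in WT, STAT5A by 0.25 (limma adjusted p = 0.0307) and STAT5B by 0.16 (adjusted p = 0.0247). The STAT5A call was lost without WT untreated replicate 1 (adjusted p = 0.0504) or 2 (0.102), or WT AraC replicate 1 (0.0827) or 3 (0.114). It was also lost under quantile normalization (0.107) and with no filter (0.0647). The STAT5B call was lost without WT untreated replicate 1 (0.10 log2, adjusted p = 0.0947), or WT AraC replicate 2 (0.0754) or 3 (0.0792), and with only the WT groups in the fit (0.0665). In KO-labelled cells the AraC effects were 0.07 for both genes (limma adjusted p = 0.559 and 0.288), and that of STAT5B passed under TPM scaling (0.21, adjusted p = 0.0151) and plain totals (0.19, 0.0154). Of the stretches of 75 bases in STAT5A exons 7.06% also occur in STAT5B, and reads there could have been split or dropped between the 2 genes.

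CISH, a feedback gene whose product blocks STAT5 docking sites on receptors, did not change in any comparison. It lies at chr3:50606490-50611831 on the minus strand and stood near the filter, with at least 1 FPKM in 10 of 12 libraries and 64 to 158 reads per library. It was at 1.11, 1.20 and 1.35 FPKM in WT and 1.30, 0.978 and 0.792 in KO libraries without AraC, and at 1.08, 1.74 and 1.13 in WT and 1.37, 1.49 and 1.27 in KO with it. The genotypes overlapped under both treatments, with log2 differences of -0.19 (-0.54 to 0.17, limma adjusted p = 0.435) and 0.06 (-0.29 to 0.42, adjusted p = 0.808). AraC differences were 0.07 in WT (limma adjusted p = 0.764) and 0.31 in KO (-0.04 to 0.67, adjusted p = 0.139). The promoter printed above with 4 STAT5-type motifs therefore belongs to a gene read at about 1 FPKM. CISH shares 218 exon bases (4.26%) with MAPKAPK3 on the opposite strand, which stood at 8.57 to 14.3 FPKM, and the strand setting of the counting is not given in these sources.

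SOCS2, a suppressor of cytokine signalling induced by STAT5, was the member with the lowest level, and all its KO-labelled libraries lay below the WT libraries of the same treatment. It lies at chr12:93569814-93583487 on the plus strand. It had 0.181, 0.187 and 0.0847 FPKM in untreated WT and 0.0654, 0.0383 and 0.0280 in untreated KO libraries. With AraC it had 0.163, 0.150 and 0.142 FPKM in WT and 0.0254, 0.0344 and 0.0267 in KO. These values rest on 9 to 27 reads per WT library and 3 to 7 per KO library. Summed over 3 libraries, untreated KO had 14 reads and untreated WT 48, a ratio scaled for library size of 0.292 with an exact counting interval of 0.149 to 0.538. With AraC the sums were 10 and 62 and the ratio 0.188 (0.0860 to 0.370). These intervals cover counting error only.

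SOCS2 did not enter the 13300 genes tested. With no filter on low values limma gave log2 differences of -0.26 without AraC (Benjamini-Hochberg adjusted p = 0.0228) and -0.30 with AraC (adjusted p = 0.00862), on a scale whose pseudocount of 0.5 exceeds the levels themselves. Limma-voom on the recovered reads with no filter, added after the data were seen, gave -1.67 (-2.66 to -0.68, adjusted p = 0.0236) and -2.25 (-3.27 to -1.23, adjusted p = 0.00278). SOCS2 shares 277 exon bases (4.09%) with SOCS2-AS1 on the opposite strand. That antisense gene had 12 reads over the untreated WT libraries and 0 over the untreated KO libraries, and 13 and 1 with AraC. Reads of the pair in the shared bases cannot be told apart without strand.

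AraC raised IL2RG, CSF2RB and JAK2 and lowered IL7R in both genotypes. In WT 6 of 9 rose (24.1% of all genes tested) and 1 fell (25.6%), with a median of 0.23 beside -0.01 over all genes. In KO-labelled cells 3 of 9 rose (19.8% of all genes) and 1 fell (24.7%), with a median of 0.13 beside -0.03. The counts differ by JAK3, STAT5A and STAT5B, whose calls in WT lay near the threshold and whose interactions did not pass. Treated and untreated libraries did not overlap for 8 of 9 members in WT (60.2% of all genes) and 6 of 9 in KO (51.2%), so separation of this kind was common among all genes. For the interaction 0 of 9 members passed in limma (2.69% of all genes), and 1, IL7R, had an unadjusted p under 0.05. Limma-voom called 0 with the filter and 1, IL7R, without it.

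**Figure D3:**
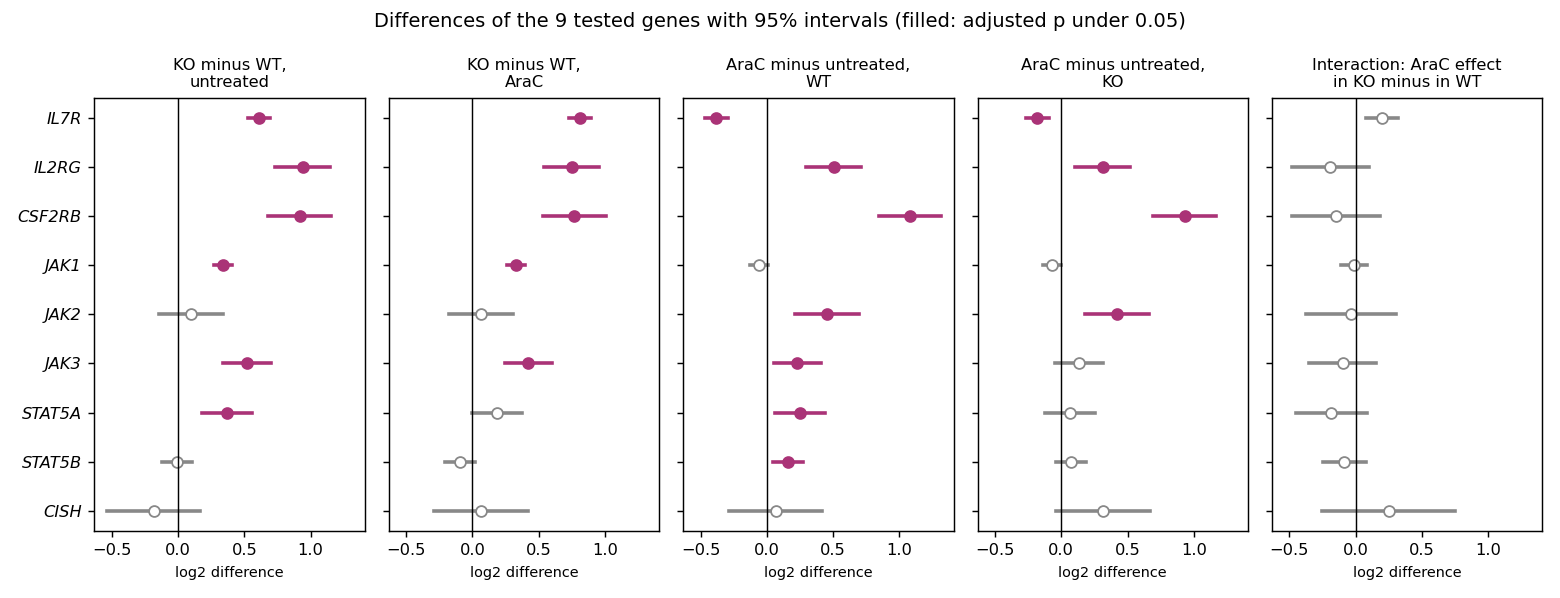
Log2 differences of the 9 tested members with 95% intervals for KO against WT without and with AraC, the AraC effect in each genotype, and the interaction, where filled points have an adjusted p under 0.05. IL7R, IL2RG, CSF2RB, JAK1 and JAK3 are filled to the right of 0 in both genotype comparisons, IL7R is filled to the left in both AraC comparisons, and no interaction is filled.

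The order of levels differed between the groups. In untreated WT cells it ran from IL7R (mean 39.1 FPKM) through JAK1 (29.1), STAT5B (13.1), JAK3 (9.52), IL2RG (4.66) and STAT5A (3.89) to JAK2 (1.60), CSF2RB (1.499), CISH (1.22) and SOCS2 (0.151). JAK2 overlapped CSF2RB there, and CSF2RB overlapped CISH, so that order is not resolved. After AraC in WT no neighbours overlapped, and CSF2RB (3.71 FPKM) stood above JAK2 (2.38). In KO-labelled cells JAK3 and STAT5B overlapped with and without AraC (means 13.9 and 13.0 FPKM untreated), so their order, resolved in WT, was not resolved there. After AraC in KO-labelled cells CSF2RB (6.68) stood above STAT5A (5.43). The 2 chains of the interleukin 7 receptor also came closer in level: the ratio of IL7R to IL2RG FPKM was 8.40 ± 0.33 (SD, n = 3) in WT and 6.41 ± 0.87 in KO libraries without AraC, and 4.41 ± 0.43 and 4.50 ± 0.44 with it. The overlap of the IL2RG gene model given above bears on the size of that ratio.

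For the 3 of the 9 tested members with the widest range of group means on the log2(FPKM + 0.5) scale, the protein-coding genes most like them over the 12 libraries are given as a description. Likeness is Pearson's r of log2(FPKM + 0.5), and the libraries share the 4 groups, so genes with any similar group means score highly. IL7R was most like TRIM25 (r = 0.995), UGT3A2 (0.991) and ALDH3A2 (0.988). UGT3A2 had group means of 38.3 FPKM in WT and 109 in KO cells without AraC, and 24.0 and 73.8 with it, the same order as IL7R over a wider range. IL2RG was most like CEMIP2 (0.985), ADGRL1 (0.981) and NPC1 (0.980). CSF2RB was most like KCNN4 (0.988), CLMN (0.983) and HIPK2 (0.978).

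Beyond the members, 6 lists of 80 genes covered the rest of the pathway. Of 12 cytokines of the pathway 0 passed the filter. IL7 itself was at 0.0560 to 0.334 FPKM and TSLP, which signals through IL7R and CRLF2, at 0.0298 to 0.354, as listed after their values were seen. Of 21 other receptor chains 10 were tested, and in untreated KO-labelled cells 2 rose and 3 fell (14.9% and 12.6% of all genes), with a median of -0.03. Among AraC-treated libraries 1 was higher and 4 lower in KO than in WT (15.4% and 14.8% of all genes). That median was -0.23, beside 0.00 over all genes. Among other JAK and STAT genes in untreated KO-labelled cells, STAT2 rose by 0.21 (limma adjusted p = 0.017) and STAT3 fell by -0.20 (adjusted p = 0.0321), both calls that were lost on leaving out single libraries. STAT2 lost its call without WT untreated replicate 1 (0.0657) or 2 (0.0571), or KO untreated replicate 1 (0.0550) or 3 (0.0523), and under TPM (0.0658) and plain totals (0.053). STAT3 lost it without any single untreated WT library (0.0515 to 0.0947), without KO untreated replicate 1 (0.10) or 2 (0.0931), and with no filter (0.0619). Among AraC-treated libraries STAT3 was lower in KO than in WT by -0.36 (limma adjusted p = 0.00117).

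Of 17 other negative regulators 16 were tested, and 4 rose and 2 fell in untreated KO-labelled cells (median 0.09), beside 14.9% and 12.6% of all genes. The fall of PTPRC, the CD45 phosphatase that can dephosphorylate JAK kinases, was the largest log2 difference between the genotypes in the 5 lists with tested genes. PTPRC was at 1.36 to 1.51 FPKM in untreated WT and 0.0921 to 0.138 in untreated KO libraries (-1.64, -1.96 to -1.33, limma adjusted p = 9.51e-06), and at 1.44 to 1.87 against 0.125 to 0.204 with AraC (-1.73, adjusted p = 7.89e-06). PTPRC passed the filter on low values only through WT libraries, so its difference is a description only. The ubiquitin ligases CBL and CBLB rose by 0.39 and 0.62 without AraC (limma adjusted p = 0.000272 and 0.000303). Among AraC-treated libraries SH2B3, an adaptor that restrains JAK2, was lower in KO than in WT by -0.54 (limma adjusted p = 7.16e-06). Of the list, 1 was higher and 2 lower in AraC-treated KO than in AraC-treated WT libraries (15.4% and 14.8% of all genes, median -0.00).

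Of 13 STAT5 target genes 10 were tested, and 4 rose and 2 fell in untreated KO-labelled cells (14.9% and 12.6% of all genes, median 0.11 beside 0.01 over all genes). In AraC-treated KO against AraC-treated WT libraries 3 were higher and 1 lower (15.4% and 14.8% of all genes, median 0.09). BCL6, a transcriptional repressor of the B lineage that STAT5 is known to hold down in mouse B cell precursors, was at 2.66 to 2.92 FPKM in untreated WT and 5.07 to 5.78 in untreated KO libraries (0.85 log2, 0.70 to 0.99, limma adjusted p = 3.63e-06). The survival gene BCL2 was higher by 0.24 both without and with AraC (limma adjusted p = 0.000973 and 0.000805). CCND3, a D-type cyclin, was lower by -0.39 without AraC (limma adjusted p = 1.74e-05). BCL6, which STAT5 is known to repress, and BCL2, which it is known to activate, were both higher. The part of STAT5 in these differences was not tested. With AraC, 2 of the 10 rose and 6 fell in WT (24.1% and 25.6% of all genes, median -0.27), and 1 rose and 7 fell in KO (19.8% and 24.7% of all genes, median -0.25). MYC was at 142 to 154 FPKM in untreated and 60.9 to 66.5 in AraC-treated WT libraries (-1.21, limma adjusted p = 2.63e-08) and by -1.25 log2 in KO, and BCL2 fell by -0.39 and -0.38 (adjusted p = 1.27e-05 and 1.84e-05).

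Of 11 transcription factors known to act on IL7R 10 were tested, and 1 rose and 3 fell in untreated KO-labelled cells (median -0.01), beside 14.9% and 12.6% of all genes. FOXO1, an activator of IL7R in lymphocytes, was lower where IL7R was higher, at 1.52 to 1.64 FPKM in untreated WT against 0.254 to 0.589 in untreated KO libraries (-1.15, -1.49 to -0.82, limma adjusted p = 0.00018). With AraC it was at 1.29 to 1.36 against 0.215 to 0.271 (-1.29, limma adjusted p = 8.54e-05). FOXO1 passed the filter on low values only through WT libraries, and a link to IL7R was not tested. ETS1 rose by 0.40 without and 0.64 with AraC (limma adjusted p = 0.000492 and 1.98e-05). NR3C1, the glucocorticoid receptor, which induces IL7R in lymphocytes, fell by -0.22 without AraC (limma adjusted p = 0.00591). In AraC-treated KO against AraC-treated WT libraries, 4 of the list were higher and 3 lower (15.4% and 14.8% of all genes, median 0.05). AraC itself raised 1 and lowered 6 in WT (24.1% and 25.6% of all genes, median -0.22), MYB falling by -0.66 (limma adjusted p = 1.8e-06). In KO it raised 2 and lowered 4 (19.8% and 24.7% of all genes, median -0.11).

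Among the receptor chains 3 rose and 0 fell with AraC, both in WT (median 0.18) and in KO (median 0.02). Over all genes the shares were 24.1% higher and 25.6% lower in WT, and 19.8% and 24.7% in KO. IL4R rose by 0.66 in WT and 0.70 in KO (limma adjusted p = 0.000116 and 8.95e-05), and IL6ST, the signal chain of the interleukin 6 family, by 0.62 and 0.42 (adjusted p = 0.000108 and 0.00199). Of the JAK and STAT genes, STAT2 rose by 0.47 and 0.48 and STAT6, used by interleukin 4, fell by -0.43 and -0.42, both in WT and in KO. Among the 16 tested negative regulators 5 rose and 1 fell in WT (24.1% and 25.6% of all genes, median 0.04). In KO 2 rose and 4 fell (19.8% and 24.7% of all genes, median -0.06). PTPN6, the SHP-1 phosphatase, fell in both, by -0.48 and -0.61 (limma adjusted p = 2.14e-06 and 5.36e-07).

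**Figure D4:**
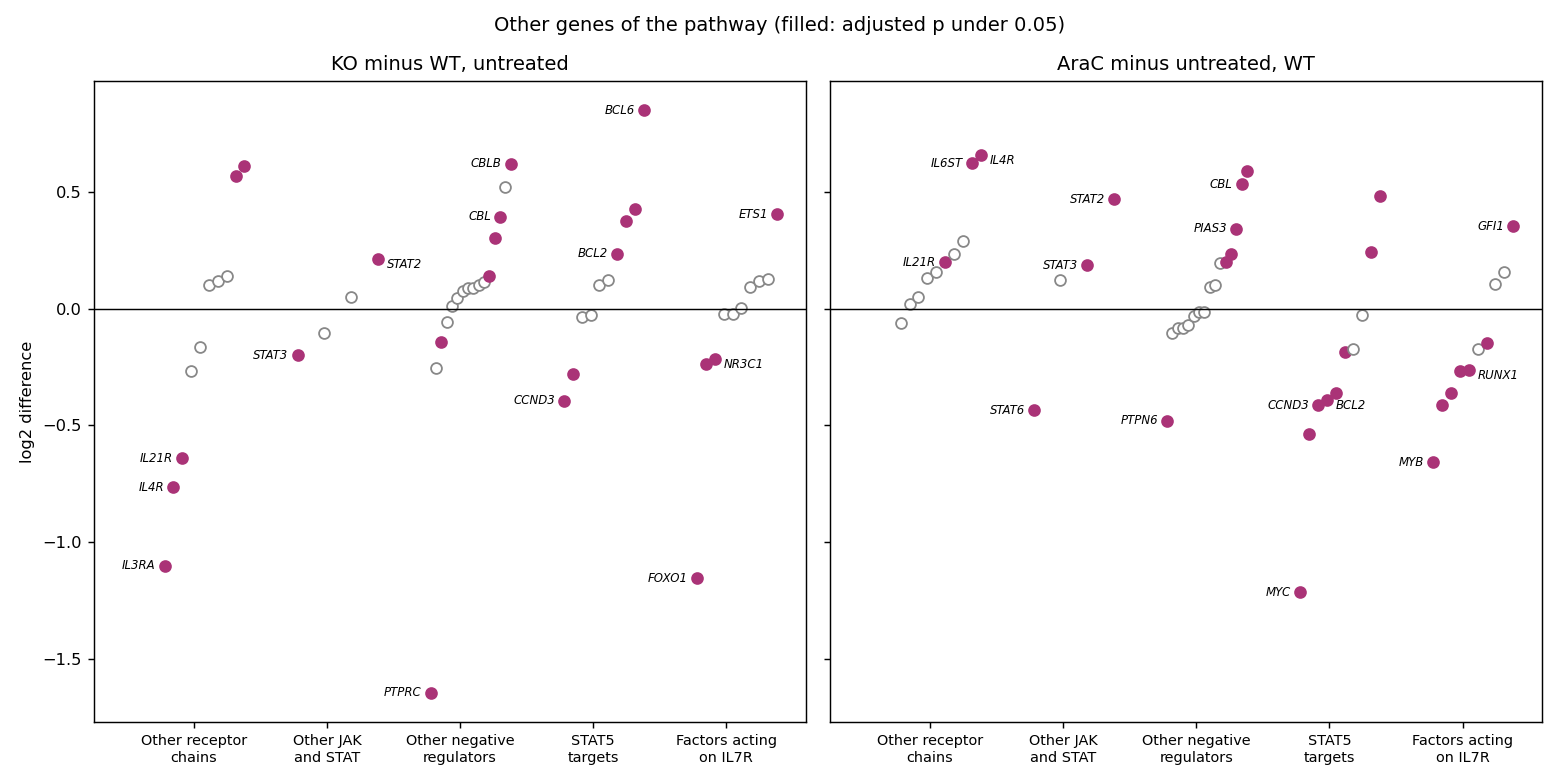
Log2 differences of the tested genes of 5 further lists for KO minus WT without AraC and for AraC minus untreated in WT, 1 point per gene shown, ordered within its list, filled where the adjusted p is under 0.05. PTPRC (-1.64), FOXO1 (-1.15) and IL3RA (-1.10) lie lowest and BCL6 (0.85) highest for the genotype, and MYC (-1.21) lies lowest for AraC. PTPRC and FOXO1 passed the filter only through WT libraries.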

How the data were processed

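RNA of SEM cells was sequenced in 12 libraries, and the authors deposited FPKM per gene in 1 table. Per the submitters' processing notes, fastp, HISAT2 2.0.5 and featureCounts 1.5.0-p3 were used with GRCh38, and library preparation, strandedness and how each tool was run are not given in these sources. FPKM multiplied by the table's gene length gave whole reads (100% of values within 0.001 of a whole number), and the implied library sizes followed median-of-ratios factors with a spread of 0.149% (SD over mean), so the deposited FPKM already carry a scaling between libraries. Positions and lengths equal those of GENCODE 29.

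Groups were taken from the labels. Limma 3.58.1 (R 4.3.3) was fitted to log2(FPKM + 0.5) of 13300 genes with at least 1 FPKM in at least 3 libraries. The fit had a mean per group, a variance trend and 8 residual degrees of freedom, with two-sided tests and Benjamini-Hochberg adjustment over all genes tested in each of 5 comparisons. The procedure was tested on simulated data. Limma-voom used the recovered reads. Alternatives covered the pseudocount (0.1 and 1), the filter (none and 5 FPKM), scaling, the variance model, a replicate block, the libraries fitted and leaving out each library.

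All members are named, and of each list up to 3 genes per comparison with the smallest adjusted p and at least 1 FPKM in the higher group. A gene that this rule names is not reported here, some others are left out of the text for length, and genes named outside it are marked as such. The members and lists were chosen with earlier results of these data known. Promoter windows came from RefSeq on GRCh38.p14.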

Additional observations from a re-analysis of the deposited data

Results flagged for a closer look

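For 3 genes of the pathway lists the AraC effect differed between KO-labelled and WT cells by the test of the interaction (the KO effect of AraC less the WT effect). SH2B3 had an interaction of -0.393 log2 (limma adjusted p = 0.0124): AraC effects were 0.23 in WT and -0.16 in KO. Its FPKM was 14.4 to 15.9 in untreated WT, 18.1 to 18.3 in AraC-treated WT, 13.6 to 14.3 in untreated KO and 11.9 to 12.8 in AraC-treated KO libraries. The call held with each library left out in turn, although the AraC effect in KO on its own did not pass without KO untreated replicate 2 (-0.14, adjusted p = 0.0528) or KO AraC replicate 2 (-0.13, 0.0534), nor under TPM (-0.03, 0.594), plain totals (-0.04, 0.47) or quantile normalization (-0.11, 0.0575).

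CBL had an interaction of -0.3785 log2 (limma adjusted p = 0.0297), with FPKM of 8.87 to 9.38 in untreated WT, 13.1 to 14.1 in AraC-treated WT, 12.1 to 12.6 in untreated KO and 12.5 to 14.5 in AraC-treated KO libraries. It missed the threshold on leaving out each of 9 libraries, any of the untreated ones, WT AraC replicates 2 and 3 and KO AraC replicate 1 (adjusted p from 0.0519 to 0.0729), and with the replicate block (0.0522), quantile normalization (0.054) or no filter (0.0513). CCND3 had an interaction of 0.2964 log2 (limma adjusted p = 0.0196), with FPKM of 53.9 to 55.2 in untreated WT, 39.2 to 43.5 in AraC-treated WT, 41.0 to 41.9 in untreated KO and 37.8 to 38.6 in AraC-treated KO libraries. It missed the threshold without WT untreated replicate 1 (adjusted p = 0.0513), WT AraC replicate 2 (0.0587), KO untreated replicate 2 (0.0521) or KO AraC replicate 1 (0.050).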

How the results depend on the processing

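Of 1061 values of the 45 tested member differences under an alternative, 1009 kept direction and side of the threshold, 23 fell below it, 9 rose past it and 20 changed sign. Of 1449 values of 61 other named differences, 1405 kept both and 44 fell below it. The causes were not tested. JAK1 changed sign for AraC in WT under TPM (0.1352), plain totals (0.09668) and quantile normalization (0.05912), and in KO (0.06396, 0.05364 and 0.05226). CISH for AraC in WT was -0.03432 under quantile normalization, and JAK2 for KO against WT with AraC was -0.003525 under TPM. With each library left out in turn, differences that did not pass ranged across 0: CISH for AraC in WT from -0.09445 to 0.1568, STAT5A for AraC in KO from -0.0179 to 0.1493, JAK2 and STAT5B for KO against WT without AraC from -0.009366 to 0.1927 and from -0.06551 to 0.04169, CISH for KO against WT with AraC from -0.02871 to 0.2226, and the interactions of JAK1 and JAK2 from -0.03693 to 0.008428 and from -0.1306 to 0.07142.

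The interaction was called for 358 genes, and for 554 under TPM, 548 under plain totals, 625 by limma-voom, 238 with the replicate block and 127 to 341 with a library left out. Members called for the interaction went from 0 to 1 (IL7R) under quantile normalization and limma-voom with no filter. Members called for AraC in WT ranged from 4 to 7 with a library left out, with 4 without WT untreated replicate 1 or WT AraC replicate 3. The share of higher among all calls was 48.4% for AraC in WT and became 77.0% under TPM and 72.4% under plain totals, 44.5% for AraC in KO and became 69.9% and 67.7%, and 50.9% for KO against WT with AraC and became 30.9% and 36.2%.

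Same-numbered libraries deviated together little (correlations from -0.0398 to 0.115, 1 of 12 pairs over 0.1, and 5 of 12 correlated best with their own number). The pairs of AraC-treated WT and KO libraries (0.042, 0.061 and 0.115) were among those that did. These values do not show whether same-numbered libraries were handled together, which the labels do not say. The replicate block changed 1 of 45 member calls, JAK3 for AraC in WT (adjusted p = 0.0503), and of the other named differences it changed the interaction of CBL (0.0522). Depth limits the members with few reads, SOCS2 (3 to 27 per library), CISH (64 to 158), JAK2 (143 to 342) and CSF2RB (105 to 603, with 105 to 137 in untreated WT).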
